A study of Gossypium hirsutum with 3 samples.

Results

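GARP-G2-like transcription factors (TFs) take their name from the maize protein GOLDEN2 and form, with the type-B response regulators, the GARP group, whose members bind DNA through a single Myb-like domain. In Arabidopsis the family holds regulators of quite different processes, among them the GLK proteins, which activate genes for chlorophyll synthesis and light harvesting, the KANADI proteins, which set the lower side of the leaf, and PHR1, which acts in the response to phosphate starvation. Gossypium hirsutum, the main cultivated cotton, is an allotetraploid with 2 subgenomes, A and D, so that a gene is often present as a pair of homeologs. The 12 genes described here are all genes that the study's list of TFs with biased expression assigns to exactly the GARP-G2-like family, out of 180 A-biased and 204 D-biased TFs in that list. They were selected on the measured values of these same libraries. A TF entered the list when the study found its FPKM (fragments counted per gene, scaled to the length of its exons and to the size of the library) higher than that of its homeolog. The study set thresholds of 0.05 for the adjusted p from limma and 1 for the log2 fold change. It used pairs with FPKM of at least 1 in a homeolog. The family was picked for its uneven split between the subgenomes. The A-over-D difference and the split are therefore descriptions and were not tested. Levels given below for the family refer to these 12 listed genes, and GARP-G2-like genes outside the list were not examined.

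The data are RNA-seq values from leaves of 20-day-old plants of the G. hirsutum cultivar TM-1, which received no treatment and were grown in a greenhouse. Replicate libraries numbered 3, no other condition or control was measured, and nothing states whether they came from separate plants or pools, so the spread given below may be partly technical. FPKM was given for 70478 genes per library, 32032 of them named as A-subgenome genes. Ranked over genes, which are not independent replicates, any 2 libraries had a Spearman correlation of 0.981 to 0.987. Replicate 3 stood slightly apart, with the lowest median FPKM among expressed genes of both subgenomes (mean FPKM of at least 1), 6.47 against 7.10 and 7.23 in replicates 1 and 2. The files pair no gene names with the identifiers, so none of the genes can be equated with a named Arabidopsis factor, and no leaf marker could be looked up.

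All 12 genes were listed on the A side and 0 on the D side. Of the 54 families in the list, 9 had at least 12 TFs, and GARP-G2-like was the one among these that was listed on a single side. In the other 8, the A share ran between 30.0% (C2H2) and 60.9% (WRKY), while 46.9% of all listed TFs were on the A side. Another 18 of the 19 families on a single side had at most 5 TFs. The related type-B response regulators were represented by 1 TF, Gh_A07G0776, also on the A side.

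The genes lay on 9 of the 13 A chromosomes, with 2 genes each on A04, A05 and A11 and 1 each on A01, A02, A07, A09, A12 and A13. For part of the genes of A01 to A09, none of them a member of the family, the study lists start positions, and all 1797 neighbouring identifiers among these had rising coordinates with rising number. Gh_A07G0023 and Gh_A05G0138 had low numbers, at 0.971% and 3.43% of the numbering of their chromosomes. Gh_A11G3022 stood at 91.4% of the numbering of A11, for which the order was not checked. Genes sharing a chromosome were not adjacent.

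Leaf levels of the 12 genes spanned a 46.4-fold range of mean FPKM. Among the 12 listed genes, 2 had the highest levels. Gh_A09G1830 had FPKM of 67.4, 65.6 and 74.2 in replicates 1, 2 and 3, a mean of 69.1 ± 4.51 (SD, n = 3). Gh_A04G0879 had 44.7, 44.0 and 47.5, a mean of 45.4 ± 1.85 (SD, n = 3). Together they held 64.3% of the summed FPKM of the family, and their library values did not overlap. Among the 180 A-biased TFs they ranked 10 and 14, and 97.0% and 94.9% of all A-subgenome genes had lower means.

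Below these came 5 genes at intermediate levels. Gh_A13G0330 had FPKM of 19.2, 18.6 and 21.1, with a mean of 19.6 ± 1.30 (SD, n = 3). Gh_A11G2224 had 15.3, 13.7 and 11.9, with a mean of 13.6 ± 1.72 (SD, n = 3). Each of these exceeded the next gene in the order in every library without overlap. Gh_A02G0227 stood at 8.64, 10.001 and 10.9, with a mean of 9.85 ± 1.14 (SD, n = 3). Gh_A12G0642 varied little in the values as deposited, at 7.65, 7.41 and 7.75 with a mean of 7.60 ± 0.175 (SD, n = 3). Gh_A05G0138 stood alone below them, at 3.89, 4.30 and 4.41 with a mean of 4.20 ± 0.273 (SD, n = 3).

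The remaining 5 genes had mean FPKM under 2 and were only partly ordered. Gh_A04G1278 had FPKM of 1.87, 2.02 and 1.77 in replicates 1, 2 and 3. Gh_A07G0023 had 1.74, 1.92 and 1.90, and Gh_A11G3022 had 1.96, 1.90 and 1.50. These 3 overlapped with each other, and a different one of them was highest in each library. Gh_A05G1295 had 1.46, 1.65 and 1.65. Gh_A01G1632 had the lowest mean, 1.49 ± 0.157 (SD, n = 3), from values of 1.50, 1.33 and 1.64. Of the 11 neighbouring steps in the order of means, the 7 down to Gh_A04G1278 were without overlap between libraries, and the 4 within this lowest group overlapped. Across more than a step, Gh_A04G1278 and Gh_A07G0023 lay above Gh_A05G1295 and Gh_A01G1632 without overlap, while Gh_A11G3022 overlapped with all 4.

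**Figure D1:**
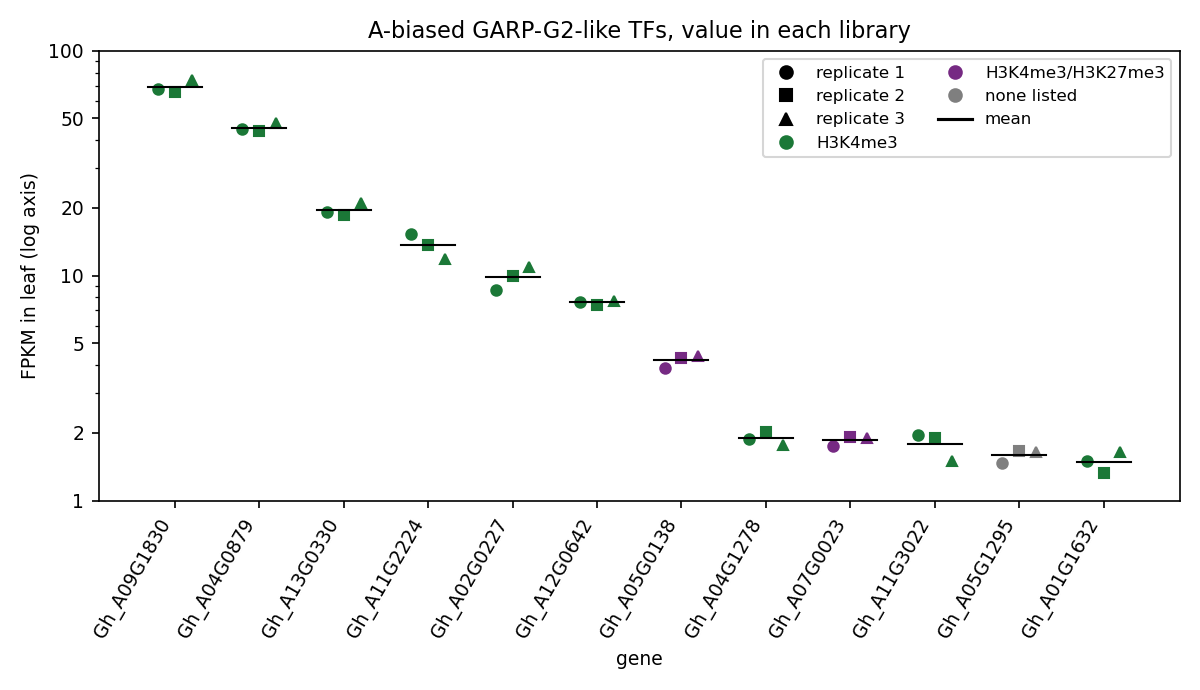
FPKM in leaf (log axis) of the 12 A-biased GARP-G2-like TFs, with 1 point per replicate library, a line at the mean, and colours for the histone marks listed for each gene. The values run between 74.2 FPKM for Gh_A09G1830 and 1.33 FPKM for Gh_A01G1632, and each of the 5 genes under 2 FPKM overlaps with the next in the order.

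Each gene had FPKM of 1 or more in all 3 libraries, which the selection favoured, since no A-biased TF in the list had a mean under 1 FPKM. The median of the family was 5.90 FPKM, with quartiles of 1.84 and 15.1, close to 5.69 FPKM, with quartiles of 2.61 and 17.0, in the other 168 A-biased TFs. By library, the medians were 5.77, 5.85 and 6.08 for the family and 5.55, 6.01 and 5.56 for the other A-biased TFs, so that neither was higher throughout. Shares at low levels lay further apart than the medians, but the bound of 2 FPKM falls in a gap of the 12 means. That gap runs from 1.89 to 4.20 FPKM. The bound was chosen with earlier results known, and the difference was not tested. Under 2 FPKM lay 5 of the 12 genes (41.7%), against 31 of the other 168 A-biased TFs (18.5%) and 2616 of the 19678 expressed A-subgenome genes (13.3%). At 10 FPKM or more lay 4 of the 12 (33.3%), against 66 of the 168 (39.3%). Among all A-subgenome genes, 66.0% lay below the family median, and among the expressed ones 44.6% did.

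The Myb-like domain is shared with the MYB and MYB-related families. The 14 A-biased MYB TFs had a median of 9.66 FPKM and the 7 A-biased MYB-related TFs one of 3.71 FPKM, on either side of the 5.90 FPKM of the GARP-G2-like genes, and the 3 ranges overlapped. Gh_A07G0776, the TF of the type-B response regulators, which in Arabidopsis carry cytokinin responses, had FPKM of 1.32, 1.85 and 0.921. Its mean of 1.36 ± 0.465 (SD, n = 3) was below that of every GARP-G2-like gene, but its library values overlapped those of the lowest ones.

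Genes of the family that share a chromosome did not share a level. On A04, Gh_A04G0879 was 24.1-fold above Gh_A04G1278, between 21.8-fold and 26.9-fold by library. On A11, Gh_A11G2224 was 7.63-fold above Gh_A11G3022, between 7.20-fold and 7.94-fold. On A05, Gh_A05G0138 was 2.64-fold above Gh_A05G1295, between 2.60-fold and 2.67-fold. The ratio varied most between libraries on A04, where the genes deviated from their means in opposite directions in replicates 2 and 3. In each case the levels lay apart in every library. Relative to the other genes of its chromosome, Gh_A09G1830 had the highest place, above 96.8% of the 2532 genes of A09, and Gh_A05G1295 the lowest, above 42.3% of the 4026 genes of A05.

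The spread between libraries was small. The coefficient of variation (CV, the SD over the libraries divided by their mean) had a median of 6.65% in the family, against 11.6% in the other A-biased TFs and 12.3% in expressed A-subgenome genes. It was lowest in Gh_A12G0642 at 2.30% and highest in Gh_A11G3022 at 14.1%, where the highest library was 1.31-fold above the lowest. These places depended on the scale of the libraries, since after rescaling them to a common median the CV was lowest in Gh_A04G1278 at 2.82% and highest in Gh_A02G0227 at 16.7%, with 8.07% in Gh_A12G0642 and 8.96% in Gh_A11G3022. Because the CV falls with the level, each gene was also set beside A-subgenome genes of its own level. The CV of 11 of the 12 genes was below the median of its level class, against 96 of the other 168 A-biased TFs (57.1%). The exception was Gh_A11G2224, with a CV of 12.6% where the median of genes between 10 and 20 FPKM was 9.43%. The difference shrank with the same rescaling, to 9 of 12 against 73 of 168 (43.5%), with median CVs of 10.5% and 13.7%. All 12 genes were measured in the same 3 libraries and are not independent of each other. The criteria of the study included an adjusted p from limma on these libraries, which favours a small spread. A low CV beside all A-subgenome genes may therefore partly reflect the selection, which was not tested. The other A-biased TFs share this selection. Their median CV was 11.6% against 12.3% in expressed A-subgenome genes, and after rescaling 13.7% against 12.9%.

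**Figure D2:**
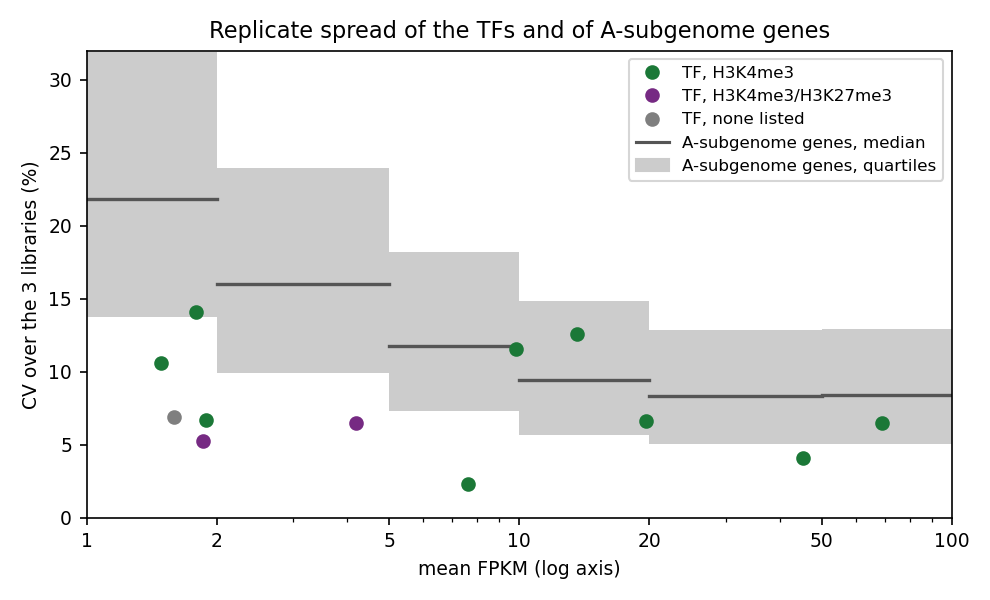
CV over the 3 libraries (%) against mean FPKM (log axis) for the 12 TFs, with the median (line) and quartiles (grey) of A-subgenome genes in classes of mean FPKM. All points but that of Gh_A11G2224, at 12.6%, lie below the line of their class.

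Replicate 3 was the library in which the genes most often had their highest value. It was highest for 7 of the 12 genes, where 32.2% of expressed A-subgenome genes had their highest value in it, and lowest for 3 of the 12, where 50.3% had their lowest value in it. Of the other A-biased TFs, 89 of 168 (53.0%) were highest and 46 of 168 (27.4%) lowest in replicate 3, and the difference between these shares and those of the family was not tested. After rescaling to a common median, 9 of the 12 genes were highest in replicate 3, with 48.1% in the background. Lowest in it were 2, with 35.0% in the background. Of the other A-biased TFs, rescaled likewise, 118 of 168 (70.2%) were highest and 21 of 168 (12.5%) lowest in replicate 3. A high share of genes highest in replicate 3 was thus not particular to the family. The 2 GARP-G2-like genes lowest in replicate 3 after rescaling were both genes of A11. In the values as deposited, Gh_A11G2224 was 12.8% below its own mean in replicate 3 and 12.4% above it in replicate 1. Gh_A11G3022 was 16.2% below and 9.84% above. On the same scale, replicate 3 was lowest for 51.4% of the expressed genes of A11. This was the highest share among the 9 chromosomes that carry a GARP-G2-like gene, but the shares were close, between 48.5% and 51.4%. Gh_A02G0227 had the opposite order, 12.3% below its mean in replicate 1 and 10.8% above it in replicate 3.

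**Figure D3:**
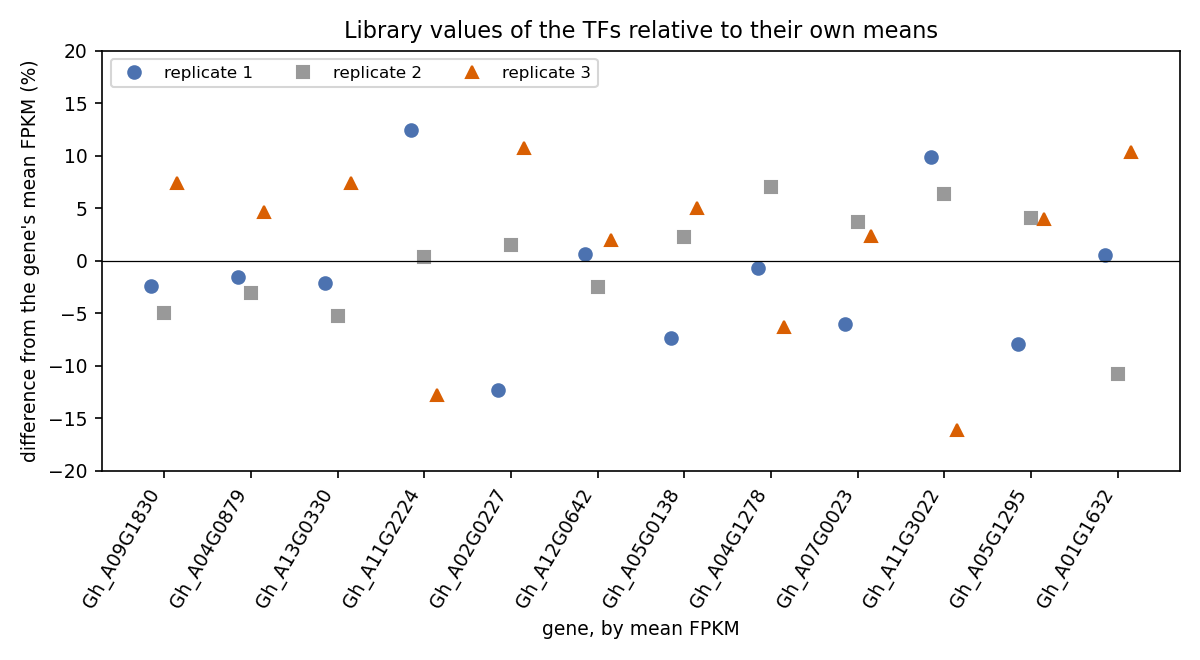
Difference of each library value from the gene's own mean FPKM (%), with the 12 genes ordered by mean FPKM and 1 point per replicate library. Replicate 3 is the highest point for 7 genes, and for Gh_A11G2224 and Gh_A11G3022 it is the lowest, 12.8% and 16.2% below the mean.

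Histone marks listed by the study were set beside the levels. H3K4me3 is a mark of active promoters and H3K27me3 one of repression by Polycomb proteins. Of the 12 genes, 9 were listed with H3K4me3, 2 with both marks, 0 with H3K27me3 alone, and Gh_A05G1295 with neither. The ChIP-seq data were not analysed here. The 9 genes with H3K4me3 covered the whole range of the family, between 1.49 and 69.1 FPKM with a median of 9.85, beside 9.71 FPKM in the 114 other A-biased TFs with this mark alone. The genes with both marks, Gh_A05G0138 at 4.20 FPKM and Gh_A07G0023 at 1.85 FPKM, were in the lower part of the family, and the 29 other A-biased TFs with both marks had a median of 4.28 FPKM. Gh_A05G1295, with no listed mark, was at 1.59 FPKM, beside a median of 2.51 FPKM in the 14 other A-biased TFs without one. Gh_A04G1278, Gh_A11G3022 and Gh_A01G1632, all with H3K4me3 alone, were also under 2 FPKM, so levels under 2 FPKM were found with each of the 3 listed classes. Gh_A04G0879 was the 1 gene of the 12 (8.33%) that the study also placed in its leaf-related co-expression module, beside 24 of the other 168 A-biased TFs (14.3%). Gh_A09G1830, the most abundant of the 12 genes, was not listed there.

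D homeologs could be followed for the 2 genes whose pairs were in the part of the study's pair lists used here. This part covers chromosome A01 and part of A02 with 2580 pairs, 1999 of them expressed from at least 1 homeolog. The other 10 genes lie on chromosomes outside this part, and their homeologs were not analysed here. For Gh_A01G1632, FPKM was 1.50, 1.33 and 1.64 in replicates 1, 2 and 3, against 0.264, 0.194 and 0.284 for its homeolog Gh_D01G1830. Both homeologs were highest in replicate 3 and lowest in replicate 2, and the difference on the log2(FPKM + 0.42) scale, A minus D, was 1.49, 1.51 and 1.55, a mean of 1.52 ± 0.0321 (SD, n = 3). The pseudocount exceeded every D value here and narrowed this spread, as the plain ratios of FPKM were 5.67, 6.86 and 5.78. The D homeolog was under FPKM 1 in every library, and 29.9% of D-subgenome genes lay below it.

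For Gh_A02G0227, FPKM was 8.64, 10.001 and 10.9, against 3.66, 2.96 and 3.21 for its homeolog Gh_D02G0291. Here replicate 1 was lowest for the A homeolog and highest for the D homeolog, and the difference was 1.15 in replicate 1 against 1.63 and 1.64 in the others, a mean of 1.47 ± 0.280 (SD, n = 3). This D homeolog was expressed at FPKM 1 or more in every library, above 56.3% of D-subgenome genes. Across the pairs, then, one D copy was below the expression threshold of the study and the other above it.

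**Figure D4:**
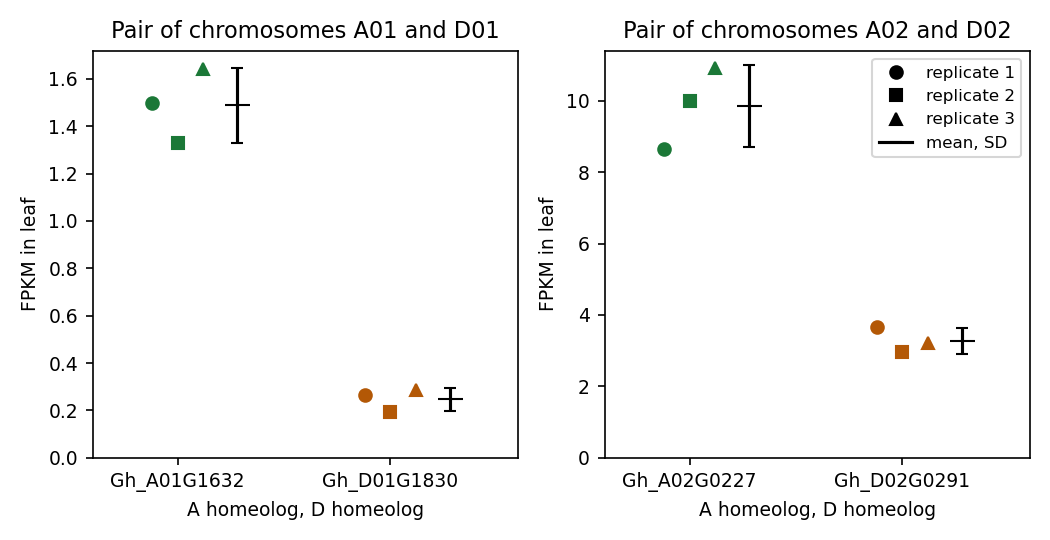
FPKM in leaf of the A homeolog (left) and the D homeolog (right) of both pairs, with 1 point per replicate library and the mean with its SD (n = 3). The A values lie between 1.33 and 1.64 against 0.194 to 0.284 for the first pair, and between 8.64 and 10.9 against 2.96 to 3.66 for the second.

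A values lay above D values without overlap in both pairs, as in 30.1% of the 1999 expressed pairs, and both pairs met the criteria for A bias (adjusted p below 0.05 from limma with Benjamini-Hochberg adjustment and a log2 difference of at least 1), which 10.8% of the pairs met. Nothing can be read from these counts, since this difference chose the genes. The pseudocount mattered for the weaker pair. The plain ratio of mean FPKM was 6.02 for Gh_A01G1632 and 3.01 for Gh_A02G0227, although on the log2(FPKM + 0.42) scale their differences were nearly the same, and with a pseudocount of 1 the log2 difference of Gh_A01G1632 was 0.995, under the threshold. Of the pairs that met the criteria for A bias, 20 held a TF listed as A-biased. Among these 20 pairs the log2 differences ranked 12 and 14, below the median of 1.68. The ranks hold for the pseudocount of 0.42 and rest on the difference that chose the genes. FPKM holds no record of reads that fit either homeolog, and in bulk leaf tissue fewer cells with a transcript and less transcript per cell cannot be told apart.

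The pairs beside these genes were not used to choose them and were therefore compared with limma. Of the 5 homeologous pairs on either side of each, 20 in all, 12 were expressed and tested. None of the 12 was A-biased by limma (0, with 10.8% of all tested pairs A-biased), and 1 was D-biased, where 13.3% of all tested pairs were. Without the fold threshold, 5 of the 12 had an adjusted p under 0.05 from limma, 3 with A and 2 with D the higher, beside 55.7% of all tested pairs, and 3 in each direction had an unadjusted p under 0.05. Log2 differences were above 0 in 6 and below 0 in 6 of the 12, beside 47.3% above 0 of all tested pairs. A values were above D values without overlap in 3 pairs and D values above A values in 3, beside 30.1% and 32.3% of all tested pairs.

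Around Gh_A01G1632, all 8 tested pairs lay within -0.70 and 0.49 and none was called, with a median of -0.01. Both directly adjacent pairs were below FPKM 1 in each homeolog and were not tested. The homeologs of the 10 pairs beside it carried descending D01 numbers where A01 numbers ascended. The lowest value, -0.70 (SE 0.10, adjusted p = 0.000709 from limma, but short of the fold threshold), belonged to Gh_A01G1634, which was noticed after its values were seen, at FPKM of 488, 526 and 480 against 801, 792 and 830 for its homeolog Gh_D01G1828. A pair strongly expressed from both homeologs, with D the higher, thus stood 2 positions from the weakly expressed A-biased gene.

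Around Gh_A02G0227, 4 pairs were tested. Gh_A02G0222, 2 pairs away, was listed at 0, 0 and 0.0275 FPKM against 19.6, 20.7 and 23.8 FPKM for its homeolog Gh_D02G0289. It was the D-biased pair, with a log2 difference of -5.66 (SE 0.11, adjusted p = 7.33e-08 from limma), opposite in direction to the TF beside it. The other 3 pairs had log2 differences between -0.17 and 0.69, and none was called. Of the 10 pairs beside Gh_A02G0227, 6 were under FPKM 1 in both homeologs.

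**Figure D5:**
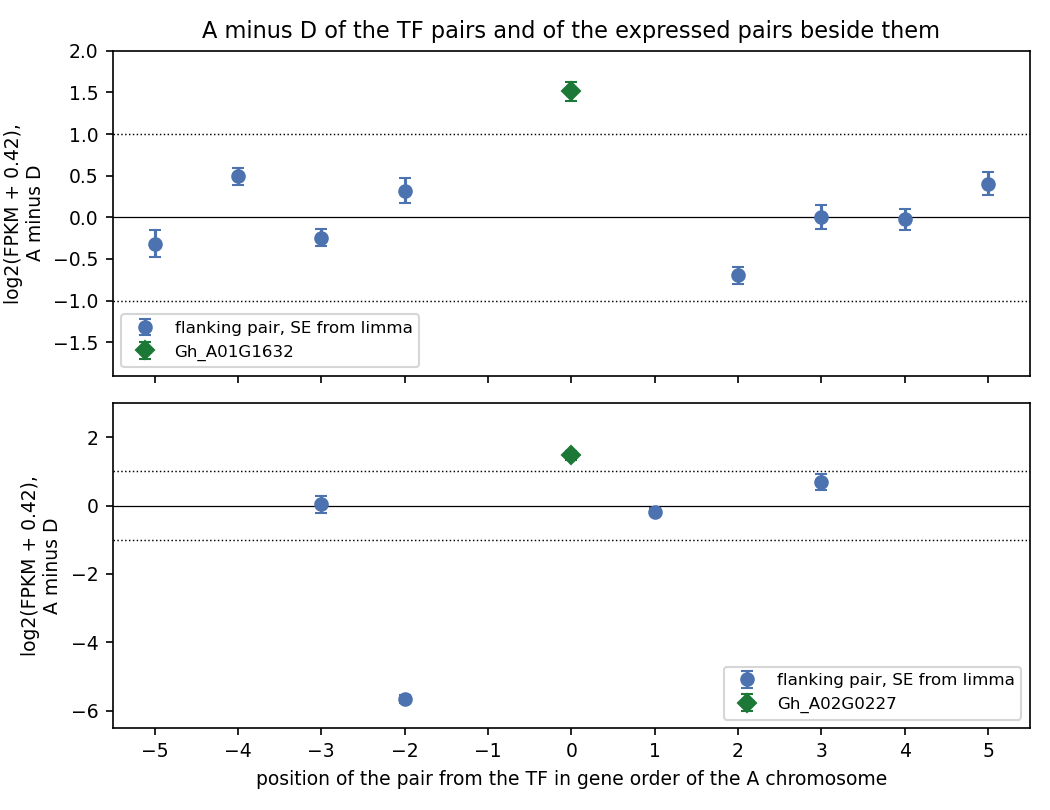
Log2(FPKM + 0.42), A minus D, of the pairs of Gh_A01G1632 (top) and Gh_A02G0227 (bottom) and of the expressed pairs up to 5 positions away in gene order, with SE from limma and dotted lines at the thresholds of 1 and -1. The TFs stand at 1.52 and 1.47, and Gh_A02G0222 at -5.66, a size that rests on the pseudocount, is the flanking pair past a threshold.

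Genes beside the 12 TFs had a lower median level than all A-subgenome genes, to a degree that depended on the window. The 24 genes directly beside them, 1 on either side, had a median of 0.209 FPKM, and 10 of them (41.7%) reached mean FPKM of 1 and 3 of them 10, up to 33.5 FPKM, where the median of all A-subgenome genes was 2.50 FPKM and 61.4% reached 1. With 2 genes on either side, the main setting, the median was 1.36 FPKM and 25 of 48 (52.1%) reached 1. With 5 on either side it was 1.81 FPKM and 69 of 120 (57.5%) did. The upper quartile was 4.33 FPKM with 1 gene on either side, but 10.3 with 2 and 10.2 with 5, against 9.25 in all A-subgenome genes. In the wider windows 13 of 48 and 31 of 120 reached 10 FPKM, where 23.5% of all A-subgenome genes did. The upper part of these windows was thus not lower. Gh_A09G1830, at 69.1 FPKM, had directly adjacent genes at 0 and at 0.0422 FPKM, and beyond them genes at 54.9 and 0.0828 FPKM. For Gh_A11G3022, both genes on either side, at 18.0, 2.71, 26.5 and 18.9 FPKM, exceeded its 1.79 FPKM. In all, 32 of the 48 neighbours were below their TF, and 4 of the 12 TFs exceeded all of their neighbours. As the TFs had to be expressed to be listed, these counts do not show low neighbours. Of all A-subgenome genes, 66.0% lay below the median of the 12 TFs, and between 43.0% and 97.0% lay below the single TFs. These neighbours were looked at as a description of position, and no test was made.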

How the data were processed

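RNA-seq values of 3 TM-1 leaf libraries were used. The paper describes enrichment of mRNA before library preparation, whereas the labels speak both of removing most mRNA with oligo(T) beads and of using enriched mRNA; enrichment was assumed. Before depositing them, the authors cleaned reads in fastp (minimum quality 25, minimum length 20 bp), aligned them by Hisat2 against the TM-1 assembly and obtained FPKM from StringTie and CottonGen gene models. Versions are not given in the sources used here. The deposited FPKM values were used without further normalization. No count test was run, since FPKM is no count. Among genes below FPKM 0.05 in both libraries, the commonest ratios of FPKM between libraries were 0.96, 0.99 and 1.04, a trace of similar depth.

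Families, marks, module and homeologous pairs are the paper's lists, the pairs only for A01 and part of A02. Its columns of fold changes and p-values were not used. On log2(FPKM + 0.42), pairs were fitted as A minus D with limma 3.58.1 (R 4.3.3), without a replicate block, with Benjamini-Hochberg adjustment over 1999 pairs with mean FPKM of 1 or more in a homeolog. A and D values of a library come from the same sample, which pairs them, and their deviations from the group means correlated in every library (r = 0.18, 0.56 and 0.62). The fit was tested on simulated data. Other values were computed in Python 3.11.15 with numpy 2.4.6 and pandas 2.3.3, and figures drawn with matplotlib 3.10.9. Members, lists and settings, the pseudocount included, were chosen with earlier results of these data known. Genes named are the 12 members, their listed D homeologs, the type-B response regulator and flanking pairs called biased. Gh_A01G1634, its homeolog and the neighbours given by value were added after their values were seen. Level classes of the CV and values by chromosome were likewise added afterwards. RefSeq gene tables matched 0 of the identifiers, so no sequence is shown.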

Additional observations from a re-analysis of the deposited data

How the results depend on the processing

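Alternatives covered the pseudocount, the filter, the window, library scaling, the replicate block, a variance trend and leaving out each library. For Gh_A01G1632 the log2 A minus D difference was 2.20 with a pseudocount of 0.1, 0.995 with 1 and 2.60 with none, against 1.52 at 0.42. The share of A-subgenome genes below the family median was 66.0% over all genes and 44.6% over those with mean FPKM of 1 or more. The family was 1.04 times the other A-biased TFs by median FPKM and 0.938 times by the back-transformed mean of log2(FPKM + 1). The share of expressed A-subgenome genes with a lower CV than the family median was 21.9%, 21.5% by the SD of log2 values and 38.9% after rescaling the libraries. Without the filter 1 flanking pair was A-biased in place of 0, and with 10 pairs on either side 1 was A-biased and 3 were D-biased of 24 tested. Neighbouring genes had a median of 1.36 FPKM with 2 on either side, 0.209 with 1 and 1.81 with 5. The fit with the replicate block gave 216 A-biased and 267 D-biased pairs in all, against 215 and 265 without the block, and the counts of biased flanking pairs did not change. Leaving out a library moved the family median between 5.81 and 5.97 FPKM and left the counts of biased flanking pairs as they were. Depth could not be read from FPKM, and the read totals that the paper gives for its leaf libraries were not used. Values under FPKM 1 therefore carry no counting interval.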
